A study of Mus musculus with 12 samples.

Results

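The genes described here are 10 transcription factors of quiescent T cells, the Krüppel-like factors Klf2, Klf3, Klf4, Klf6, Klf7, Klf10 and Klf13 and the forkhead factors Foxo1, Foxo3 and Foxp1. They were chosen by name and found by their Ensembl identifiers among the 54232 genes of a deposited count table. All 10 passed the filter on low counts, which left 15679 genes tested. RNA was sequenced from purified mouse naive CD4+ T cells of spleen and pLN. One genotype was a knockout of Ddx55 (KO), which encodes a DEAD-box RNA helicase, and the other was wild type (WT). KO and WT cells were each taken at 0, 8 and 24 h on plates carrying 2 bound antibodies, one at 5 ug/ml to CD3, which engages the T cell receptor, and one at 2.5 ug/ml to the costimulatory receptor CD28. Each of the 6 groups had 2 libraries, with no word on whether they came from separate animals, so a p-value here measures the spread between these libraries, which may be technical. The way the deletion was made, the cells that carried it and the age of the animals are not given in the labels used here.

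Quiescence of naive T cells is held up by a small set of transcription factors. FOXO proteins sit in the nucleus of resting cells, where they sustain genes for homing, interleukin 7 signalling and cell cycle arrest, and signalling through PI3K and AKT after antigen contact sends them out to the cytoplasm. Klf2, itself a FOXO1 target, drives the receptors that keep naive cells circulating through blood and lymph. Foxp1 restrains the response of naive cells to interleukin 7 and antigen. The libraries measure RNA only, so the location and amount of these proteins were not measured.

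Gene counts per library ran from 16810375 to 19126498, and the lowest count of any of the 10 genes in any library was 28, for Klf4 in a WT library at 8 h. Levels are given as CPM, a gene's count scaled to the library's total with TMM factors. Tests are edgeR quasi-likelihood tests over all 12 libraries, and a call needs a p under 0.05 after Benjamini-Hochberg adjustment. Ddx55 itself stood at 19.5 and 19.0 CPM in KO, against 45.3 and 51.2 CPM in WT libraries at 0 h. It stood at 17.95 and 17.1 CPM in KO, against 68.7 and 64.1 CPM in WT libraries at 8 h, and at 14.7 and 14.4 CPM in KO, against 52.9 and 55.2 CPM in WT libraries at 24 h. Every KO library lay below every WT library, and at 24 h KO cells held 27.0% of the WT level. The 10 T cell markers summed to 4148 to 6279 CPM in KO, against 3534 to 6276 CPM in WT libraries, and none of them was at 0 in a whole group. Markers of other cell types differed between the genotypes and are given beside the results they accompany.

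The 4 genes called higher in the KO libraries of 24 h, Klf3, Klf7, Foxo1 and Foxo3, are shown by the 250 bases before their RefSeq start (GRCm38.p6, 5′ to 3′ along the gene), in lower case, with capitals for matches to CCCCACCC, a KLF-type box, on either strand.
Klf3 (chr5:64803271-64803520, plus strand): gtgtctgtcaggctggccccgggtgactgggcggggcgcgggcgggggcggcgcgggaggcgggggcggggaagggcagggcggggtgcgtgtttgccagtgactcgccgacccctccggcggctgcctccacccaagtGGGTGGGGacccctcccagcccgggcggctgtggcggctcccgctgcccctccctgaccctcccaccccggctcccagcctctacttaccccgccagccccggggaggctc
Klf7 (chr1:64121390-64121639, minus strand): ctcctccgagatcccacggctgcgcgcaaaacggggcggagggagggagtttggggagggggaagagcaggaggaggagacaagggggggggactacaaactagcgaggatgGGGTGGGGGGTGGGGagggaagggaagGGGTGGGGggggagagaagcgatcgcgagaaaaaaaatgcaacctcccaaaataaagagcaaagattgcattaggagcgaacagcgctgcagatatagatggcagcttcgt
Foxo1 (chr3:52268087-52268336, plus strand): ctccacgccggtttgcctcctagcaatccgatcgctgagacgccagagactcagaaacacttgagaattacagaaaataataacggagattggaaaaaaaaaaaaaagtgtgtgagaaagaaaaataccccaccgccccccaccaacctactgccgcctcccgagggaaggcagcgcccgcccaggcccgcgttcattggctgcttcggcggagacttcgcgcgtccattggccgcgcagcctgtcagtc
Foxo3 (chr10:42276696-42276945, minus strand): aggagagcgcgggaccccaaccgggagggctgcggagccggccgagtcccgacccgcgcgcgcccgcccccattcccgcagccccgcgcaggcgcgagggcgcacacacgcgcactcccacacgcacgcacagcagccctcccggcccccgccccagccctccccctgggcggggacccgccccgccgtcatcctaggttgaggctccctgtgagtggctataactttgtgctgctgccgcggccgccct
RefSeq windows were matched for 9 of the 10 genes, with 3 windows for Foxp1, giving 11 windows of 250 bases before to 50 bases after a start, 300 bases in all. CCCCACCC on either strand was present in 3 of the 11 windows, against 10% of all 32544 promoter windows. In the Klf3 window it was read once, on the opposite strand, with its first base at -111 from the start. In the Klf7 window it was read 3 times on the opposite strand, at -138, -131 and -111, and the matches at -138 and -131 share a base. The Foxp1 match, at -178 of its promoter 1, lay on the gene's own strand. The forkhead motif GTAAACA (3.66% of all windows), the KLF-type box CCACACCC (3.57%), the cyclic AMP response element TGACGTCA (1.8%) and the CArG box (1.64%) were not read in any of the 11 windows, searched on both strands. The Foxo1 and Foxo3 windows held no match to any motif searched.

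In resting cells Klf2, the factor that drives exit from lymphoid tissue, had the highest level per length of the 10 genes. On the scale of CPM per kb of exon, it averaged 414 ± 11.1 in KO and 392 ± 80.8 in WT cells at 0 h (SD, n = 2 each). Klf13, which in T cells regulates the chemokine gene Ccl5, and Klf6, a zinc finger factor also induced in stressed cells, followed and did not separate from each other. Klf13 stood at 63.4 ± 4.69 CPM per kb in KO and 74.8 ± 4.22 CPM per kb in WT cells, and Klf6 at 67.2 ± 10.2 CPM per kb in KO and 70.7 ± 58.1 CPM per kb in WT cells. Foxo1 stood at 31.2 ± 1.51 CPM per kb in KO and 40.5 ± 0.186 CPM per kb in WT cells. Klf7 and Klf10 were the lowest in both genotypes, between 2.61 and 4.59 CPM per kb on average.

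**Figure D1:**
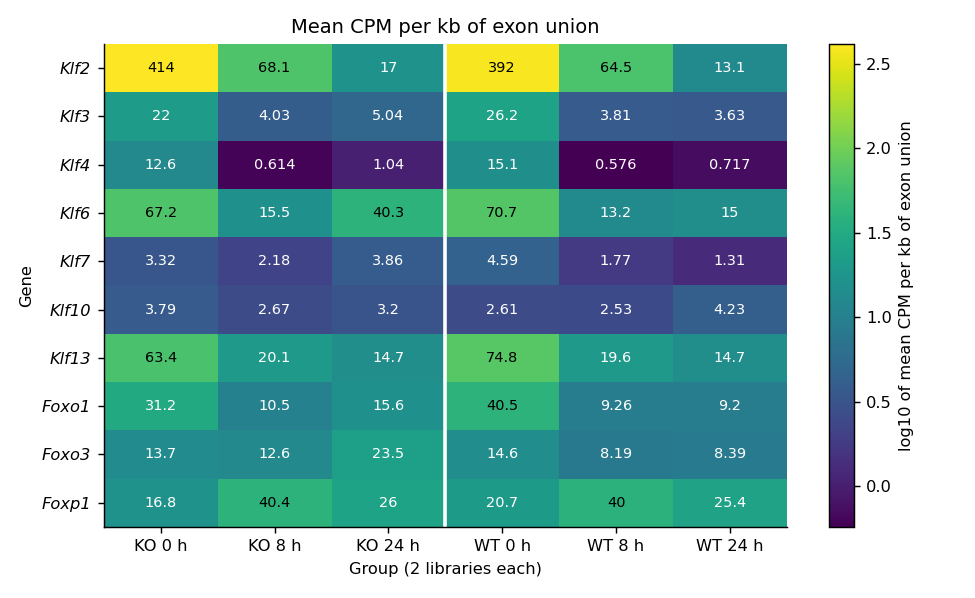
Mean level of each gene (rows) in each group (columns, KO left of WT, 2 libraries each) in CPM per kb of exon union, printed in the cells and coloured on a log10 scale. Klf2 leads at 0 h with 414 CPM per kb in KO and 392 CPM per kb in WT cells, and Klf6 leads in KO cells at 24 h with 40.3 CPM per kb, where WT cells have 15.03 CPM per kb.

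The order of the genes changed with stimulation and then differed between the genotypes. At 8 h Klf2 was still the highest, at 68.1 ± 22.9 CPM per kb in KO and 64.5 ± 9.78 CPM per kb in WT cells, and Foxp1 was next, at 40.4 ± 0.00943 CPM per kb in KO and 40.0 ± 1.78 CPM per kb in WT cells. At 24 h Klf6 led in KO cells at 40.3 ± 7.25 CPM per kb and Foxp1 led in WT cells at 25.4 ± 1.30 CPM per kb. Foxo3 was the third of the 10 in KO cells at 24 h (23.5 ± 0.136 CPM per kb) and the sixth in WT cells (8.39 ± 0.00803 CPM per kb). Klf4 was the lowest of all from 8 h on in both genotypes, at 0.576 to 1.04 CPM per kb. Dividing by the longest transcript in place of the exon union moved 26 of the 60 ranks, and Foxp1 was then first in both genotypes at 8 h and at 24 h.

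Stimulation for 8 h lowered most of the 10 genes in both genotypes. In KO cells 8 of the 10 passed the test against 0 h, 7 lower and 1 higher, where 61.5% of all genes tested passed. In WT cells 9 of the 10 passed, 8 lower and 1 higher, where 61.9% of all genes passed and 33.6% were lower. The median log2 fold change of the 10 was -1.61 in KO and -2.03 in WT cells, against -0.102 in KO and -0.146 in WT cells over all genes tested. In bulk RNA, fewer cells that express a gene and less RNA per cell cannot be told apart.

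**Figure D2:**
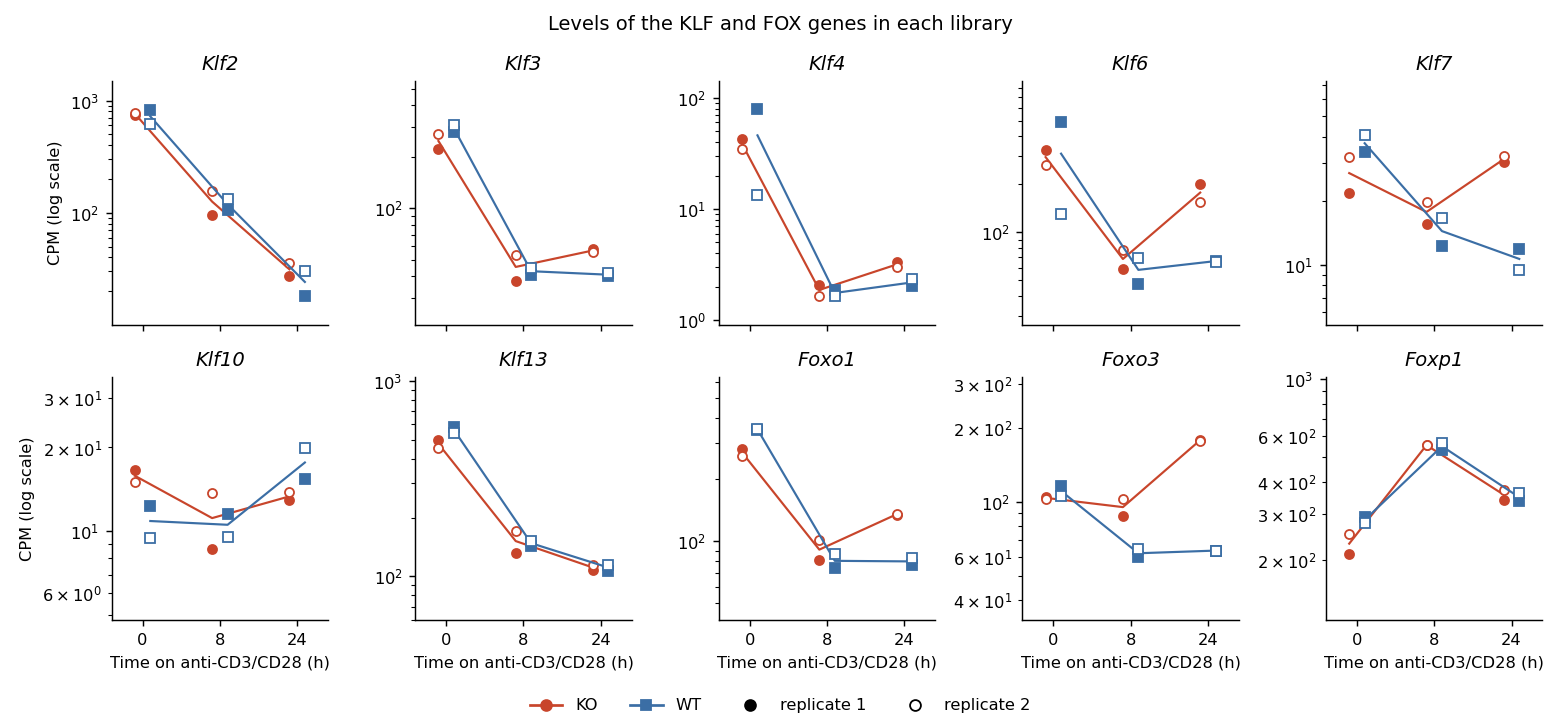
Level of each of the 10 genes in each library in CPM (vertical log axes, a range of their own per panel) against hours on anti-CD3 and anti-CD28, with KO as circles left of WT as squares, replicate 1 filled and replicate 2 open, and lines through the group means. At 24 h both KO libraries lie above both WT libraries for Klf3, Klf4, Klf6, Klf7, Foxo1 and Foxo3, and below them for Klf10. Of these, Klf4, Klf6 and Klf10 did not pass the test with all 12 libraries. The share of all genes tested that separate in this way was not counted.

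Among the forkhead genes, Foxo1, the FOXO factor that sustains Il7r in naive T cells, fell in both genotypes by 8 h and then parted. In KO libraries it had 280.0 and 261 CPM at 0 h, 80.9 and 101 CPM at 8 h, and 134 and 136 CPM at 24 h. In WT libraries it had 349.7 and 352 CPM at 0 h, 74.0 and 86.4 CPM at 8 h, and 76.5 and 82.9 CPM at 24 h. The KO libraries lay below the WT libraries at 0 h, overlapped them at 8 h and lay above them at 24 h. From 8 h to 24 h Foxo1 rose in KO cells (log2 fold change 0.57 ± 0.11, adjusted p = 0.00107) and was at -0.01 ± 0.11 in WT cells (adjusted p = 0.963). At 24 h against 0 h it was 2-fold lower in KO cells (-1.001 ± 0.11, adjusted p = 1.73e-06) and 4.4-fold lower in WT cells (-2.14 ± 0.11, adjusted p = 5.11e-10).

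Foxo3, the FOXO factor tied to cell death and stress responses, did not pass the test at 8 h in KO cells and fell in WT cells. It had 105 and 103 CPM in KO libraries at 0 h, 87.6 and 103 CPM at 8 h, and 179 and 177 CPM at 24 h. In WT libraries it had 116 and 106 CPM at 0 h, 59.6 and 64.3 CPM at 8 h, and 63.6 and 63.5 CPM at 24 h. All 4 stimulated KO libraries lay above all 4 stimulated WT libraries, and at 24 h the KO libraries stood above every library at 0 h. At 8 h against 0 h the log2 fold change was -0.12 ± 0.09 in KO (adjusted p = 0.269) and -0.84 ± 0.10 in WT cells (adjusted p = 2e-06). At 24 h against 0 h Foxo3 was 1.71-fold higher in KO cells (0.78 ± 0.09, adjusted p = 4.86e-06) and 1.74-fold lower in WT cells (-0.80 ± 0.10, adjusted p = 2.88e-06).

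Foxp1, a repressor that holds naive T cells at rest, was the gene that rose at 8 h in both genotypes. It had 210.0 and 252 CPM in KO libraries at 0 h, 555 and 555 CPM at 8 h, and 341 and 372 CPM at 24 h. WT libraries had 292 and 278 CPM at 0 h, 532 and 567 CPM at 8 h, and 336 and 362 CPM at 24 h. The genotypes overlapped at 8 h and 24 h, and at 0 h the KO libraries were the lower ones. Relative to 0 h it was 2.4-fold higher at 8 h in KO cells (log2 fold change 1.26 ± 0.10, adjusted p = 6.1e-08) and 1.93-fold higher in WT cells (0.95 ± 0.10, adjusted p = 1.14e-06). From 8 h to 24 h it fell in KO (-0.64 ± 0.10, adjusted p = 0.000247) and in WT cells (-0.66 ± 0.10, adjusted p = 0.000114). At 24 h it was still above 0 h in KO cells (0.63 ± 0.10, adjusted p = 9.35e-05) and in WT cells (0.29 ± 0.10, adjusted p = 0.0209). The WT call was lost without WT 0 h replicate 1 (0.33, adjusted p = 0.0512), WT 0 h replicate 2 (0.26, adjusted p = 0.114) or WT 24 h replicate 2 (0.32, adjusted p = 0.0558). Foxp1 shares 300 exon bases with the same-strand gene Gm20696 and 135 with the microRNA gene Gm49348, so its counts could include reads of these.

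Klf2 fell at both steps of the time course in both genotypes. Its KO libraries had 751 and 779.5 CPM at 0 h, 95.9 and 156 CPM at 8 h, and 27.2 and 35.4 CPM at 24 h. Its WT libraries had 829.6 and 618 CPM at 0 h, 106 and 132 CPM at 8 h, and 18.1 and 30.3 CPM at 24 h. KO and WT libraries overlapped at every time. At 24 h against 0 h Klf2 was 24.4-fold lower in KO cells (log2 fold change -4.61 ± 0.35, adjusted p = 9.62e-06) and 29.9-fold lower in WT cells (-4.90 ± 0.36, adjusted p = 5.22e-06). It was also lower at 24 h than at 8 h in KO (-2.00 ± 0.32, adjusted p = 0.00208) and in WT cells (-2.30 ± 0.33, adjusted p = 0.000737).

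Klf3, a repressor that recruits the CtBP corepressor, and Klf13 fell steeply by 8 h. Klf3 was 5.46-fold lower at 8 h than at 0 h in KO cells (log2 fold change -2.45 ± 0.15, adjusted p = 4.9e-09) and 6.87-fold lower in WT cells (-2.78 ± 0.15, adjusted p = 1.32e-09). Its KO libraries had 222 and 273 CPM at 0 h, 37.4 and 53.2 CPM at 8 h, and 57.6 and 55.6 CPM at 24 h. Its WT libraries had 279 and 309 CPM at 0 h, 40.9 and 44.7 CPM at 8 h, and 40.0 and 41.6 CPM at 24 h. The genotypes overlapped at 8 h and not at 0 h or 24 h. The KO libraries were the lower ones at 0 h and the higher ones at 24 h.
Klf13 had 503 and 453 CPM in KO libraries at 0 h, 132 and 172 CPM at 8 h, and 108 and 114 CPM at 24 h. In WT libraries it had 586 and 541 CPM at 0 h, 144 and 152 CPM at 8 h, and 107 and 115 CPM at 24 h. It was 3.15-fold lower at 8 h than at 0 h in KO cells (-1.65 ± 0.12, adjusted p = 1.39e-08) and 3.81-fold lower in WT cells (-1.93 ± 0.12, adjusted p = 2.51e-09). The further fall from 8 h to 24 h was called in KO (-0.45 ± 0.12, adjusted p = 0.00797) and in WT cells (-0.41 ± 0.12, adjusted p = 0.00986). That step was lost in KO cells without KO 24 h replicate 1 (-0.41, adjusted p = 0.0662) or KO 8 h replicate 2 (-0.26, adjusted p = 0.0944). It was lost in WT cells without WT 24 h replicate 1 (-0.38, adjusted p = 0.0709) or WT 8 h replicate 2 (-0.37, adjusted p = 0.0752).

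Klf7, best known from axon growth in the nervous system, fell in WT cells and came back in KO cells. Its KO libraries had 21.8 and 32.2 CPM at 0 h, 15.6 and 19.8 CPM at 8 h, and 30.5 and 32.3 CPM at 24 h. Its WT libraries had 34.0 and 40.6 CPM at 0 h, 12.3 and 16.5 CPM at 8 h, and 11.9 and 9.42 CPM at 24 h. The KO libraries lay below the WT libraries at 0 h, overlapped them at 8 h, and lay above them at 24 h. In WT cells Klf7 was 3.5-fold lower at 24 h than at 0 h (log2 fold change -1.81 ± 0.21, adjusted p = 5.54e-06), while in KO cells the change was 0.22 ± 0.20 (adjusted p = 0.365), or 0.52 (adjusted p = 0.0396) without KO 0 h replicate 2. In KO cells Klf7 was lower at 8 h than at 0 h (-0.61 ± 0.20, adjusted p = 0.0195), a call lost without KO 8 h replicate 1 (-0.45, adjusted p = 0.155) or KO 0 h replicate 2 (-0.30, adjusted p = 0.224). It was higher at 24 h than at 8 h (0.82 ± 0.20, adjusted p = 0.00701), a call lost without KO 8 h replicate 1 (0.66, adjusted p = 0.0747).

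Klf4, a factor that restrains lymphocyte division, and Klf6 were the genes on which the WT libraries at 0 h disagreed most. Klf4 had 42.5 and 34.5 CPM in KO, against 78.6 and 13.3 CPM in WT libraries at 0 h. It had 2.09 and 1.66 CPM in KO, against 1.87 and 1.64 CPM in WT libraries at 8 h, and 3.32 and 3.02 CPM in KO, against 2.05 and 2.33 CPM in WT libraries at 24 h. Klf6 had 327 and 264 CPM in KO, against 491 and 129.7 CPM in WT libraries at 0 h. It had 58.8 and 77.3 CPM in KO, against 47.5 and 68.8 CPM in WT libraries at 8 h, and 199.6 and 155 CPM in KO, against 66.5 and 65.5 CPM in WT libraries at 24 h. The WT libraries at 0 h thus held the highest and the lowest unstimulated value of both genes, with the KO libraries in between. Their split ran with the immediate early genes, which rise within minutes of cell handling or stimulation: the 18 found in the table summed to 7850 and 6187 CPM in KO, against 9432 and 4392 CPM in WT libraries at 0 h. The part of cell handling in the levels of Klf4 and Klf6 was not tested.

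**Figure D3:**
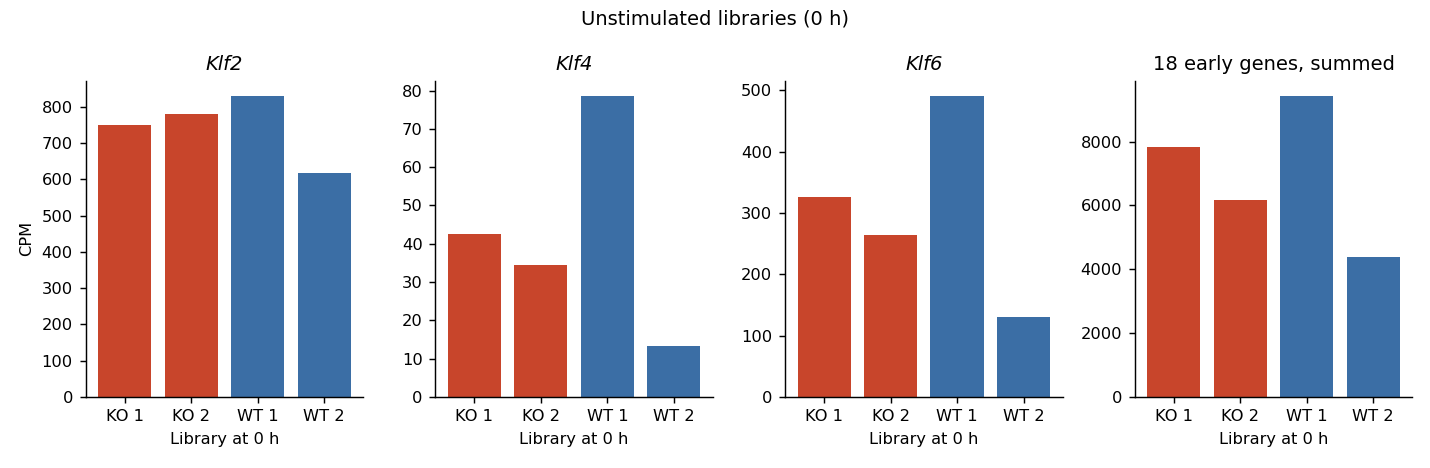
Levels in the 4 unstimulated libraries (KO left of WT, replicates 1 and 2, no error bars since each bar is a library) of Klf2, Klf4, Klf6 and the summed immediate early genes, in CPM on linear axes from 0. WT replicate 1 is the highest and WT replicate 2 the lowest of the 4 libraries in every panel.

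At 8 h against 0 h Klf4 was 20.6-fold lower in KO cells (log2 fold change -4.36 ± 0.88, adjusted p = 0.00451) and 26.1-fold lower in WT cells (-4.70 ± 0.89, adjusted p = 0.00327). Klf6 was 4.34-fold lower in KO (-2.12 ± 0.60, adjusted p = 0.0208) and 5.33-fold lower in WT cells (-2.42 ± 0.61, adjusted p = 0.0127). The size of the WT changes hung on the WT libraries of 0 h. Without replicate 1 of these, the WT change at 8 h was -2.91 for Klf4 (adjusted p = 1.09e-07) and -1.16 for Klf6 (adjusted p = 0.00238), and without replicate 2 it was -5.47 for Klf4 (adjusted p = 8.93e-11) and -3.08 for Klf6 (adjusted p = 2.3e-06). The Klf6 call in KO cells was lost without KO 0 h replicate 1 (-1.96, adjusted p = 0.0757), KO 8 h replicate 1 (-1.93, adjusted p = 0.116) or KO 8 h replicate 2 (-2.26, adjusted p = 0.0773). The call in WT cells was lost without WT 8 h replicate 1 (-2.17, adjusted p = 0.0829). Klf4 was still lower at 24 h than at 0 h in KO (-3.60 ± 0.82, adjusted p = 0.00824) and WT cells (-4.39 ± 0.86, adjusted p = 0.00358). The KO call was lost without KO 24 h replicate 1 (-3.61, adjusted p = 0.0581) or replicate 2 (-3.47, adjusted p = 0.0605). Klf6 at 24 h was at -0.74 ± 0.57 against 0 h in KO cells (adjusted p = 0.31). It was called without WT 0 h replicate 1 (-0.74, adjusted p = 0.00932) or replicate 2 (-0.74, adjusted p = 0.00975). In WT cells it was 4.7-fold lower (-2.23 ± 0.60, adjusted p = 0.0157), a call lost without WT 24 h replicate 1 (-2.18, adjusted p = 0.0838) or replicate 2 (-2.14, adjusted p = 0.0871). Without WT 0 h replicate 1 the WT change at 24 h was -2.60 for Klf4 (adjusted p = 2.46e-07) and -0.97 for Klf6 (adjusted p = 0.00616). Without WT 0 h replicate 2 it was -5.16 for Klf4 (adjusted p = 1.17e-10) and -2.89 for Klf6 (adjusted p = 3.31e-06).

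Klf10, a TGF-beta inducible repressor, was the one of the 7 KLF genes described here that rose in WT cells. It had 16.6 and 15.1 CPM in KO libraries at 0 h, 8.64 and 13.7 CPM at 8 h, and 12.9 and 13.8 CPM at 24 h. WT libraries had 12.3 and 9.51 CPM at 0 h, 11.6 and 9.55 CPM at 8 h, and 15.4 and 19.9 CPM at 24 h. The KO libraries were the higher ones at 0 h and the lower ones at 24 h. In WT cells Klf10 rose from 8 h to 24 h (log2 fold change 0.74 ± 0.21, adjusted p = 0.0104) and was above 0 h at 24 h (0.70 ± 0.21, adjusted p = 0.00932). Without WT 24 h replicate 2 these changes were 0.54 (adjusted p = 0.123) and 0.58 (adjusted p = 0.0654). Without WT 8 h replicate 2 the first was 0.61 (adjusted p = 0.0981), and without WT 0 h replicate 2 the second was 0.52 (adjusted p = 0.0905). In KO cells the 24 h level was at -0.24 ± 0.21 against 0 h (adjusted p = 0.326).

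Over the whole course, 7 of the 10 genes passed the test at 24 h against 0 h in KO cells, 2 higher and 5 lower, where 59.5% of all genes passed. In WT cells all 10 passed, 2 higher (Klf10 and Foxp1) and 8 lower, where 66.5% of all genes passed. Between 8 h and 24 h the KO cells had 6 calls (Klf7, Foxo1 and Foxo3 higher, and Klf2, Klf13 and Foxp1 lower), against 34.4% of all genes. WT cells had 4 calls in that step (Klf10 higher, and Klf2, Klf13 and Foxp1 lower), against 43.3% of all genes. Klf6 in KO cells averaged 68.0 CPM at 8 h and 177 CPM at 24 h, with no overlap of the libraries. It did not pass with edgeR (log2 fold change 1.38 ± 0.59, adjusted p = 0.126) but passed with DESeq2 (1.34, adjusted p = 0.0407). The summed level of the 10 genes was 2478 and 2466 CPM in KO libraries at 0 h, 1074 and 1252 CPM at 8 h, and 1093 and 1095 CPM at 24 h. In WT libraries it was 3067 and 2397 CPM at 0 h, 1030 and 1143 CPM at 8 h, and 738 and 792 CPM at 24 h. Both KO libraries thus stood above both WT libraries at 24 h. Foxp1 made up 51.7% and 44.3% of this sum in KO and 51.7% and 49.6% in WT libraries at 8 h.

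**Figure D4:**
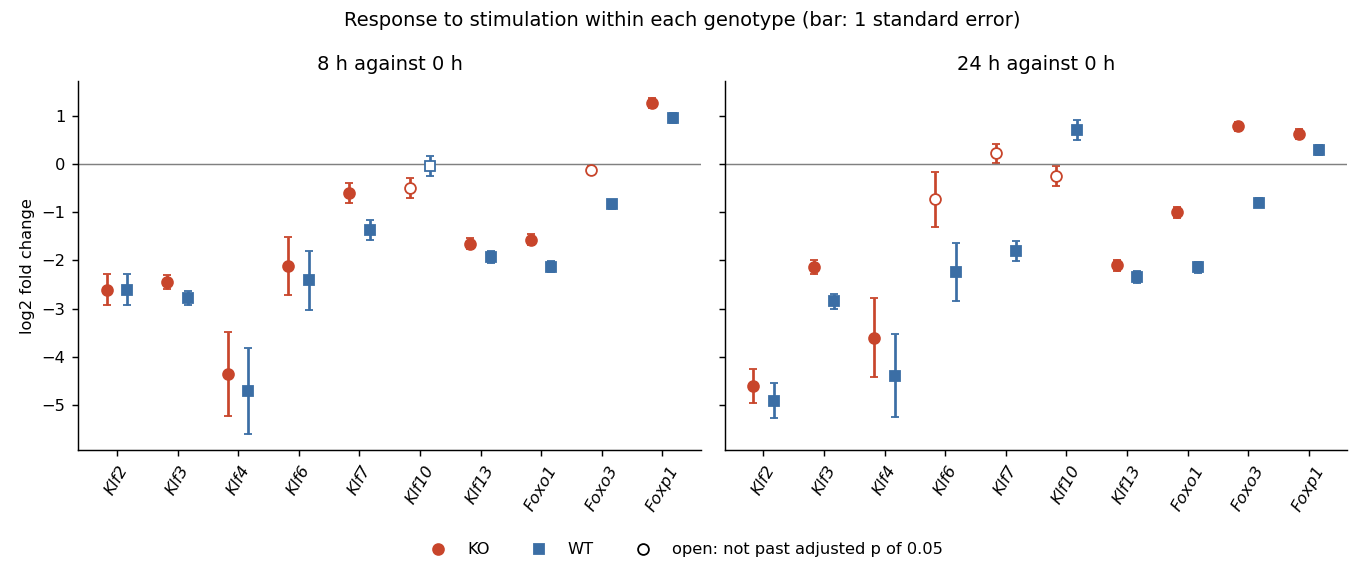
Log2 fold change of each gene at 8 h (left) and 24 h (right) against 0 h within KO (circles) and WT (squares) cells, with bars of 1 standard error and open symbols where the adjusted p did not pass 0.05. At 24 h Foxo3 lies at 0.78 in KO and -0.80 in WT cells, and Klf7 at 0.22 in KO and -1.81 in WT cells.

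Between the genotypes, KO cells at 24 h had 4 of the 10 genes higher and none lower in the fit of all 12 libraries. With the 4 libraries of 24 h alone 5 were higher and 1, Klf10, was lower. Klf7 was 2.94-fold higher (31.4 ± 1.34 CPM in KO, against 10.7 ± 1.76 CPM in WT cells; SD, n = 2 each; log2 fold change 1.56 ± 0.21, adjusted p = 7.33e-05). Foxo3 was 2.81-fold higher (178 ± 1.03 CPM in KO, against 63.5 ± 0.0608 CPM in WT cells; 1.49 ± 0.10, adjusted p = 2.21e-08), and Foxo1 was 1.7-fold higher (0.76 ± 0.11, adjusted p = 7.5e-05). Klf3 was 1.39-fold higher (0.47 ± 0.14, adjusted p = 0.0191), a call lost without any one of the 4 libraries of 24 h, where the change lay between 0.46 and 0.51 (adjusted p = 0.0543 to 0.0983). The calls of Klf7, Foxo1 and Foxo3 stood without each of the 12 libraries in turn. A call was made for 38.5% of all genes tested at 24 h, 17.9% higher and 20.7% lower, so 4 of 10 is a share near that of all genes. The median log2 fold change of the 10 was 0.50, against 0.02 over all genes tested.

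Klf6 averaged 177 ± 31.8 CPM in KO, against 66.0 ± 0.740 CPM in WT cells at 24 h, both KO libraries above both WT libraries, but did not pass the test with all 12 libraries (log2 fold change 1.42 ± 0.59, adjusted p = 0.109). It passed with the 4 libraries of 24 h alone (1.43, adjusted p = 6.11e-05) and with DESeq2 (1.40, adjusted p = 0.029). In edgeR it also passed without WT 0 h replicate 1 (1.42, adjusted p = 0.000449) or replicate 2 (1.42, adjusted p = 0.000483). Over the alternatives that left out a library its adjusted p ran from 0.000449 to 0.299. Klf10, lower in both KO libraries, was at -0.40 ± 0.21 (adjusted p = 0.143), and was called lower with the 4 libraries of 24 h alone (-0.40, adjusted p = 0.0476). Klf4 was at 0.53 ± 0.97 (adjusted p = 0.715) and Klf2 at 0.37 ± 0.33 (adjusted p = 0.418). Klf13 was at 0.00 ± 0.12 (adjusted p = 1) and Foxp1 at 0.03 ± 0.10 (adjusted p = 0.837).

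**Figure D5:**
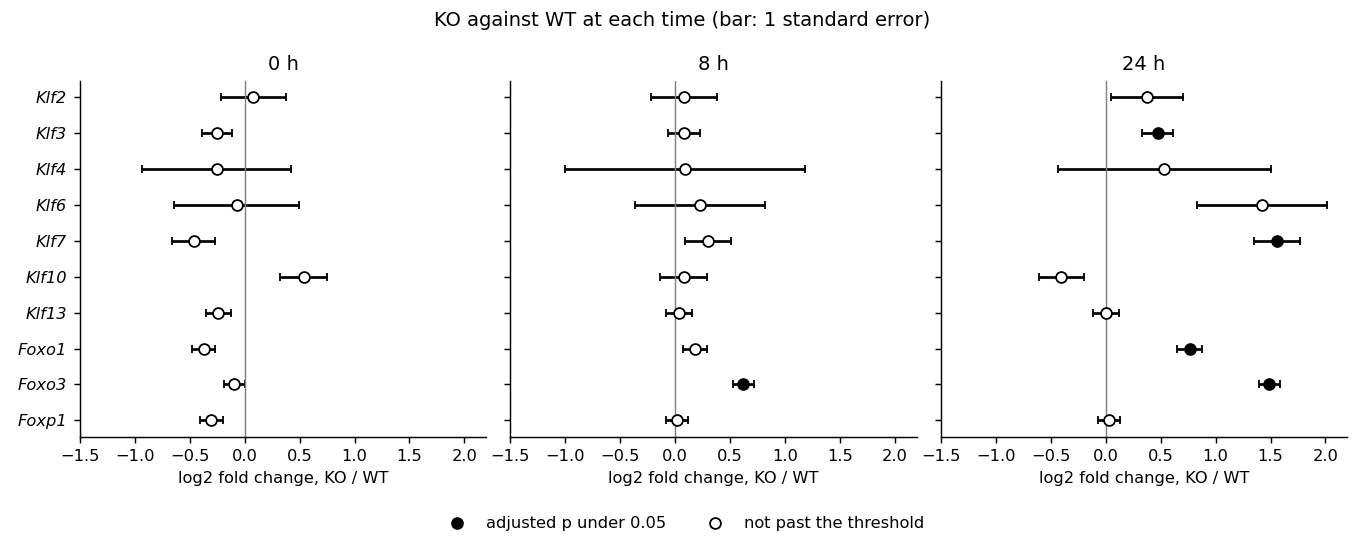
Log2 fold change of KO over WT for each gene (rows) at 0, 8 and 24 h (panels), with bars of 1 standard error and filled symbols where the adjusted p passed 0.05. Filled symbols are Foxo3 at 8 h (0.62) and Klf3 (0.47), Klf7 (1.56), Foxo1 (0.76) and Foxo3 (1.49) at 24 h, and the bars of Klf4 and Klf6 are the widest.

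At 8 h the genotypes differed in Foxo3 alone among the 10, where 2.65% of all genes tested were called. Foxo3 was 1.54-fold higher (95.3 ± 10.9 CPM in KO, against 62.0 ± 3.36 CPM in WT cells; log2 fold change 0.62 ± 0.10, adjusted p = 0.00259). The call was lost without WT 8 h replicate 1 (0.57, adjusted p = 0.0722). At 8 h the basophil and mast cell markers summed to 122 and 384 CPM in KO, against 13.0 and 9.61 CPM in WT libraries, and the CD8 T and NK markers to 100.3 and 69.1 CPM in KO, against 31.4 and 28.1 CPM in WT libraries. The other 9 genes had overlapping libraries at this time and log2 fold changes from 0.01 (Foxp1) to 0.30 (Klf7).

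At 0 h edgeR called none of the 10 genes, where 5.7% of all genes tested were called. Unadjusted p was under 0.05 for 4 of them, and DESeq2 called 1, Foxo1. Foxo1 was at 271 ± 13.1 CPM in KO, against 351 ± 1.62 CPM in WT cells (log2 fold change -0.37 ± 0.11, adjusted p = 0.0604 with edgeR and 0.043 with DESeq2). A call by edgeR was made without KO 8 h replicate 1 (-0.37, adjusted p = 0.0217) or replicate 2 (-0.35, adjusted p = 0.0323). Klf7 was at -0.46 ± 0.20 (adjusted p = 0.236) and Foxp1 at -0.30 ± 0.10 (adjusted p = 0.113). Both were called without KO 0 h replicate 2, Klf7 at -0.78 (adjusted p = 0.0338) and Foxp1 at -0.44 (adjusted p = 0.0241). Klf10 was at 0.54 ± 0.21 (adjusted p = 0.182). Klf3 was at -0.25 ± 0.14 (adjusted p = 0.392), Klf13 at -0.24 ± 0.11 (adjusted p = 0.304) and Foxo3 at -0.09 ± 0.09 (adjusted p = 0.684). For each of these 3 both KO libraries lay below both WT libraries, a separation whose share over all genes tested was not counted. Klf2 was at 0.08 ± 0.30 (adjusted p = 0.94). The direction of Klf4 and Klf6 hung on which WT library was kept. Klf4 was at -0.26 ± 0.68 (adjusted p = 0.907) with all libraries. It was at 1.53 (adjusted p = 0.00168) without WT 0 h replicate 1 and -1.03 (adjusted p = 0.00542) without WT 0 h replicate 2. Klf6 was at -0.07 ± 0.57 (adjusted p = 0.973) with all libraries and 1.19 (adjusted p = 0.0372) without WT 0 h replicate 1.

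The change of the KO effect with time was tested directly. From 0 h to 24 h it was called for 5 of the 10 genes, where 26.7% of all genes were called. It was positive for Klf7 (2.02 ± 0.29, adjusted p = 0.000219), Foxo3 (1.58 ± 0.13, adjusted p = 8.46e-07), Foxo1 (1.14 ± 0.16, adjusted p = 7.97e-05) and Klf3 (0.72 ± 0.20, adjusted p = 0.0163), and negative for Klf10 (-0.94 ± 0.30, adjusted p = 0.0296). The Klf3 change was lost without WT 24 h replicate 1 (0.68, adjusted p = 0.0683), WT 24 h replicate 2 (0.73, adjusted p = 0.0515) or WT 0 h replicate 2 (0.64, adjusted p = 0.0626). It was also lost without KO 0 h replicate 1 (0.57, adjusted p = 0.0537) or KO 24 h replicate 1 (0.68, adjusted p = 0.0605). The Klf10 change was lost without WT 0 h replicate 2 (-0.77, adjusted p = 0.112) or WT 24 h replicate 2 (-0.76, adjusted p = 0.122). It was also lost without KO 0 h replicate 1 (-0.88, adjusted p = 0.0691), KO 24 h replicate 1 (-0.91, adjusted p = 0.0829) or KO 24 h replicate 2 (-0.996, adjusted p = 0.0572).

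From 0 h to 8 h the KO effect changed for Foxo3 alone (0.71 ± 0.13, adjusted p = 0.0199), where 0.995% of all genes were called. That call was lost without WT 0 h replicate 1 (0.65, adjusted p = 0.0918), WT 8 h replicate 1 (0.66, adjusted p = 0.158), WT 8 h replicate 2 (0.77, adjusted p = 0.0575) or KO 8 h replicate 2 (0.58, adjusted p = 0.0794). From 8 h to 24 h it was called for 3 genes, where 14.4% of all genes were called: Klf7 (1.26 ± 0.29, adjusted p = 0.0122), Foxo3 (0.87 ± 0.14, adjusted p = 0.000492) and Foxo1 (0.58 ± 0.16, adjusted p = 0.0218). The Klf7 step was lost without WT 8 h replicate 2 (1.03, adjusted p = 0.0624), WT 24 h replicate 2 (1.10, adjusted p = 0.0623) or KO 8 h replicate 1 (1.10, adjusted p = 0.0525). The Foxo1 step was lost without WT 24 h replicate 1 (0.53, adjusted p = 0.0979) or WT 8 h replicate 2 (0.46, adjusted p = 0.13). The same held without KO 8 h replicate 1 (0.43, adjusted p = 0.0737), KO 24 h replicate 1 (0.60, adjusted p = 0.0603) or KO 24 h replicate 2 (0.58, adjusted p = 0.0635).

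Markers of other cell types moved with the genotype at the same time point. Over all genes tested 17.9% were called higher and 20.7% lower in KO cells at 24 h. At 24 h the 8 basophil and mast cell markers summed to 167 and 596 CPM in KO, against 6.03 and 5.74 CPM in WT libraries, and all 8 were higher in KO cells. The 12 neutrophil and granulocyte progenitor markers summed to 22.2 and 87.3 CPM in KO libraries, with Ltf and Retnlg at 0 in both. They summed to 0.593 and 0.433 CPM in WT libraries, with 7 of the 12 at 0 in both, among them Elane and Cebpe. Of the 11 tested, 5 were higher in KO cells. The 8 myeloid markers summed to 34.4 and 35.3 CPM in KO, against 13.4 and 10.6 CPM in WT libraries (3 of 7 tested higher). The 10 CD8 T and NK markers summed to 341 and 206 CPM in KO, against 49.5 and 42.0 CPM in WT libraries (5 of 10 higher). The 4 eosinophil markers summed to 27.9 and 96.9 CPM in KO, against 1.35 and 0.325 CPM in WT libraries, with Ccr3 at 0 in every library of this time and the other 3 called higher.

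At 0 h the granulocyte progenitor sum was 511 and 512 CPM in KO, against 56.0 and 13.2 CPM in WT libraries. Of 11 tested, 8 were higher, where 4.63% of all genes were. Basophil and mast cell sums were 301 and 787 CPM in KO, against 42.8 and 22.6 CPM in WT libraries at 0 h (1 of 8 higher). CD8 T and NK sums were 256 and 143 CPM, against 74.4 and 62.5 CPM (5 of 10 higher), and eosinophil sums 179 and 202 CPM, against 18.5 and 3.13 CPM (1 of 3 tested higher). T cell, regulatory T and erythroid sums overlapped at 0 h, though 2 of 6 tested erythroid and platelet markers were called higher. Stromal sums were lower in KO libraries. Myeloid sums were higher, at 101.8 and 42.2 CPM in KO, against 32.1 and 22.5 CPM in WT libraries (1 of 7 tested higher). B cell sums were 8.42 and 6.82 CPM in KO, against 5.02 and 4.57 CPM in WT libraries (1 of 3 tested higher). T cell markers summed to 4200 and 4148 CPM in KO, against 3534 and 4045 CPM in WT libraries at 24 h. Of the 10, Cd5 (0.32 ± 0.10, adjusted p = 0.0169) and Cd3d (0.35 ± 0.11, adjusted p = 0.0234) were called higher, where 17.9% of all genes were. The 7 B cell markers summed to 3.81 and 4.58 CPM in KO, against 3.18 and 2.60 CPM in WT libraries (0 of 3 tested called). The 5 stromal and endothelial markers summed to 40.6 to 46.8 CPM in KO, against 42.6 to 50.6 CPM in WT libraries (1 of 5 higher). The regulatory T markers summed to 911 to 978 CPM in KO, against 704 to 742 CPM in WT libraries (2 of 4 higher). In WT libraries that sum was 38.9 and 24.9 CPM at 0 h, and 764 and 838 CPM at 8 h. Over that step Il2ra rose (log2 fold change 8.00 ± 0.16), and Ikzf2 (-1.24 ± 0.28) and Foxp3 (-0.78 ± 0.21) fell. The stromal sum went from 269 and 296 to 47.4 and 47.9 CPM, with Pecam1 at -2.61 ± 0.12. Both sums thus moved with stimulation within a genotype. The erythroid and platelet markers summed to 29.7 to 53.2 CPM in KO, against 5.25 to 13.8 CPM in WT libraries (3 of 6 tested higher). The part of other cell types in the levels of the 10 factors was not tested.

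Among the other genes of both families, Klf1 and Klf9 were the 2 of 6 tested KLF genes called at 24 h. Klf9, induced by glucocorticoids, stood at 9.26 and 10.7 CPM in KO, against 7.27 and 5.79 CPM in WT libraries (0.61 ± 0.19, adjusted p = 0.0206). Klf1, the erythroid KLF and itself one of the erythroid markers, was at 1.36 and 1.94 CPM in KO, against 0.269 and 0.541 CPM in WT libraries (2.01 ± 0.48, adjusted p = 0.00415). Of 12 other forkhead genes tested, 4 were higher and 2 lower in KO cells at 24 h, beside 17.9% higher and 20.7% lower of all genes. Foxm1, which drives mitotic genes, was the largest of these: it had 8.55 and 10.8 CPM in KO, against 67.8 and 60.3 CPM in WT libraries (-2.73 ± 0.16, adjusted p = 7.3e-09). Foxk2 was lower (-0.77 ± 0.09, adjusted p = 7.94e-06) and Foxp4 higher (0.68 ± 0.09, adjusted p = 4.14e-05). In WT cells at 8 h, relative to 0 h, 2 other KLF genes were higher and 2 lower, and 4 other forkhead genes higher and 5 lower. Over all genes tested 28.3% were higher and 33.6% lower in that comparison. Klf16 (1.48 ± 0.10, adjusted p = 9.14e-09), Klf9 (1.90 ± 0.21, adjusted p = 1.06e-06), Foxp4 (1.67 ± 0.10, adjusted p = 1.08e-09) and Foxk2 (1.15 ± 0.09, adjusted p = 3.14e-08) rose. Klf1 (-2.14 ± 0.51, adjusted p = 0.00197) and Foxo4 (-1.58 ± 0.12, adjusted p = 3.29e-08) fell.

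Of 12 genes known as targets of FOXO1 or KLF2 in naive T cells, 7 were higher and 2 lower in KO cells at 24 h, with a median log2 fold change of 0.58. Over all genes tested 17.9% were higher and 20.7% lower, with a median of 0.022. Ccr7, the receptor for entry into lymph nodes, had 2217 and 1570.4 CPM in KO, against 536 and 592 CPM in WT libraries (1.75 ± 0.14, adjusted p = 3.07e-07). Il7r, the interleukin 7 receptor chain, had 29.4 and 24.4 CPM in KO, against 11.5 and 13.0 CPM in WT libraries (1.13 ± 0.13, adjusted p = 1.05e-05). The Il7r level in KO cells was nonetheless far below the 563 and 664 CPM of KO libraries at 0 h. Cxcr3, a chemokine receptor of effector cells, was also higher (1.69 ± 0.30, adjusted p = 0.000458). None of the 12 passed at 8 h (2.65% of all genes did), and 2 were higher at 0 h (4.63% of all genes). Between 8 h and 0 h in WT cells 3 were higher and 8 lower at 8 h, against 28.3% higher and 33.6% lower over all genes, among them Il7r (-3.04 ± 0.12, adjusted p = 4.98e-11) and the homing integrin gene Itgb7 (-3.82 ± 0.15, adjusted p = 6.44e-11).

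Of 25 genes listed as FOXO targets of stress, cell cycle and metabolism, 14 were higher and 4 lower in KO cells at 24 h (median 0.62). Over all genes tested 17.9% were higher and 20.7% lower. Btg2, an antiproliferative gene, had 185 and 179 CPM in KO, against 64.3 and 79.3 CPM in WT libraries (1.34 ± 0.10, adjusted p = 1.1e-07). Bcl2l11, which encodes the pro-apoptotic protein BIM, was higher (1.01 ± 0.10, adjusted p = 1.14e-06). Pdk1, a mitochondrial kinase that restrains pyruvate use, went the other way, with 32.6 and 38.2 CPM in KO, against 89.3 and 87.7 CPM in WT libraries (-1.32 ± 0.10, adjusted p = 1.1e-07). WT cells at 8 h had 5 of the 25 higher and 20 lower than at 0 h, where 28.3% of all genes were higher and 33.6% lower. Pdk1 (-2.73 ± 0.10, adjusted p = 2.08e-11) and the cell cycle inhibitor gene Cdkn1b (-2.38 ± 0.13, adjusted p = 9.53e-10) fell, and the autophagy gene Gabarapl1 (3.48 ± 0.17, adjusted p = 2.11e-10) rose. Of 16 other quiescence genes of T cells, 12 were higher and 0 lower in KO cells at 24 h (median 0.47), beside the same 17.9% and 20.7% of all genes. Among them were Btg1 (1.15 ± 0.15, adjusted p = 3.89e-05) and Tsc1, an inhibitor of mTOR signalling (0.71 ± 0.09, adjusted p = 3.02e-05), beside Btg2. In WT cells at 8 h against 0 h 5 of them were higher and 8 lower, led by Ets1 (-2.02 ± 0.13, adjusted p = 3.06e-09), Fyb (-3.13 ± 0.18, adjusted p = 1.89e-08) and Lef1 (-1.90 ± 0.15, adjusted p = 5.85e-08). Some genes stand on more than one of these lists. The lists were drawn up by gene name. Whether Pdk1 is a FOXO target, or Fyb a gene that holds quiescence, in these cells was not tested.

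The PI3K and AKT genes upstream of FOXO were split at 24 h: of 33, 8 were higher and 11 lower in KO cells (median -0.03), beside 17.9% higher and 20.7% lower of all genes. Mdm2, a ubiquitin ligase and p53 target, was higher (1.32 ± 0.09, adjusted p = 5.62e-08). Skp2, the ligase subunit that degrades CDKN1B (-2.26 ± 0.20, adjusted p = 4.77e-07), and the AKT phosphatase gene Phlpp2 (-1.04 ± 0.13, adjusted p = 1.79e-05) were lower. WT cells at 8 h had 11 higher and 15 lower than at 0 h, where 28.3% of all genes were higher and 33.6% lower. Sgk1, a kinase that phosphorylates FOXO (-3.10 ± 0.13, adjusted p = 8.49e-11), and Pik3r5 (-2.82 ± 0.12, adjusted p = 9.44e-11) fell. Ywhag, a 14-3-3 gene, rose (1.85 ± 0.10, adjusted p = 7.47e-10). Of 13 partners and regulators of KLF factors found in the table, 5 were higher and 3 lower in KO cells at 24 h (median -0.03), against 17.9% higher and 20.7% lower of all genes. The corepressor subunit gene Hdac2 was lower (-0.44 ± 0.09, adjusted p = 0.0011), and Mef2d (0.46 ± 0.10, adjusted p = 0.00185) and Mef2c, a gene also active in B and myeloid cells (3.06 ± 0.67, adjusted p = 0.00208), were higher. In WT cells 2 were higher and 4 lower at 8 h than at 0 h, against 28.3% higher and 33.6% lower over all genes. The ubiquitin ligase gene Fbxw7 (1.13 ± 0.11, adjusted p = 5.12e-07) and Hdac2 (0.77 ± 0.09, adjusted p = 2.29e-06) rose, and the ligase gene Smurf1 fell (-0.86 ± 0.09, adjusted p = 9.78e-07).

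The immediate early genes, to which Btg2 also belongs, were higher for 5 and lower for 1 of 18 in KO cells at 24 h (median 0.82), where 17.9% of all genes were higher and 20.7% lower. Their sum was 2751 and 2514 CPM in KO, against 1572 and 1756 CPM in WT libraries at 24 h, and 4744 and 4760 CPM in KO, against 3668 and 3556 CPM in WT libraries at 8 h. Egr1, a T cell receptor target, had 300.4 and 323 CPM in KO, against 140.4 and 162 CPM in WT libraries at 24 h (1.04 ± 0.13, adjusted p = 1.6e-05). Ier5 was also higher (1.204 ± 0.12, adjusted p = 1.72e-06). In WT cells 3 were higher and 9 lower at 8 h than at 0 h, against 28.3% higher and 33.6% lower over all genes. Egr1 rose (1.74 ± 0.13, adjusted p = 2.03e-08), and Fos (-4.49 ± 0.24, adjusted p = 6.02e-08) and Zfp36 (-1.73 ± 0.18, adjusted p = 3.17e-06) fell.

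Across the 12 libraries, which share the time course, the log2 levels of several of the 10 genes ran closely together. Klf3 and Foxo1 had a Pearson correlation of 0.977, Klf3 and Klf13 of 0.963, and Klf2 and Klf13 of 0.952. Foxp1 ran against most of the others, down to -0.815 with Klf4, and Klf10 stood apart, with no correlation above 0.219 with another member. Foxo3 was most like Klf7, at 0.809. The closest genes were sought among genes tested with a symbol and a mean of at least 5 CPM, with predicted genes and clones left out. The closest to Klf2 were Stk17b (0.994) and Cyp2d22 (0.994), and the closest to Klf3 were Chd2 (0.998) and Abcc10 (0.997). The closest to Klf13 were Gramd1a (0.996) and Madd (0.996). Foxo1 was most like Smap2 (0.993) and Mta3 (0.993), and Foxo3 most like Tmem230 (0.964) and Pdcd6ip (0.96). Klf7 was most like Mdm4 (0.981), which averaged 549.7 CPM in KO, against 196 CPM in WT cells at 24 h, and Golgb1 (0.969). Klf4 was most like Zfand6 (0.975) and the immediate early gene Junb (0.973), and Klf6 most like Zfp629 (0.957) and Chic2 (0.937). Klf10 was most like Abcb10 (0.896) and Pafah1b3 (0.878), and Foxp1 most like Arhgef3 (0.991) and Tbc1d30 (0.989).

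Some members share exon bases with genes on the opposite strand in the GRCm38 annotation: Klf3 with Gm20033 (404 bases), Klf7 with Gm26649 (3196) and Gm13748 (4), and Foxo1 with Gm20402 (674). The libraries were stranded per the labels. With the strand setting of the authors' counting not given in the sources used here, reads of these partners cannot be told apart from reads of Klf3, Klf7 and Foxo1. Klf7 lies on chromosome 1 at 64029447 to 64122282 (minus strand) and Foxo3 on chromosome 10 at 42181841 to 42276755 (minus strand), and for Foxo3 no exon base is shared with another gene. Foxo1 lies on chromosome 3 at 52268336 to 52353221 (plus strand) and Klf3 on chromosome 5 at 64803388 to 64832901 (plus strand).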

How the data were processed

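Per the labels' protocols, ribosomal RNA was removed from total RNA before stranded, paired-end sequencing. The submitters' processing notes name fastp 0.12.4, STAR 2.7.1a and mm10, with no role or order. The counter, its annotation and its strand setting were not given in the sources used here. The authors deposited raw counts per gene, whole numbers with no normalization, in a column for each of 12 libraries, matched to the labels by genotype, time and replicate number. A second table, of repeat loci, was not used here.

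Symbols, coordinates and exon lengths came from the GRCm38 annotation (54079 of 54232 genes had a symbol) and promoter sequences from RefSeq (GRCm38.p6). filterByExpr in edgeR 4.0.16 (R 4.3.3; minimum count 10, minimum total 15) kept 15679 genes. They were fitted with TMM factors, 1 mean for each of 6 groups and robust quasi-likelihood (6 residual degrees of freedom), for 12 two-sided contrasts, with Benjamini-Hochberg adjustment over all genes tested and a threshold of 0.05. Values after ± are standard errors for log2 fold changes and SDs over 2 libraries for levels; group overlap was read from library CPM. DESeq2 1.42.0 and other scalings, filters and left-out libraries were alternatives. The fit was tested on simulated data. Correlations used log2 CPM with a prior count of 2. Replicate numbers were not used to pair libraries.

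The 10 members and the gene lists were chosen with earlier results of these data known, so no count over a list is independent support. The text covers all 10 members, but does not print a test result for each of them in every comparison. It also names Ddx55 and, for each list, up to 3 called genes with the smallest p in KO against WT at 24 h and in WT at 8 h against 0 h. For each member it names the 2 genes with the highest Pearson correlation, among genes with a mean of at least 5 CPM that are not predicted genes or clones. Of the marker lists, counts and sums are given. A single gene that the rule would also name is not reported here. Gene counts of 16810375 to 19126498 per library set the counting precision.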

Additional observations from a re-analysis of the deposited data

Results flagged for a closer look

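For 9 results the difference between KO and WT cells itself differed between times (edgeR interaction terms, log2 scale, adjusted over all genes tested). From 0 h to 24 h the KO effect changed by 2.02 for Klf7, 1.58 for Foxo3, 1.14 for Foxo1, 0.72 for Klf3 and -0.94 for Klf10. From 0 h to 8 h it changed by 0.71 for Foxo3. From 8 h to 24 h it changed by 1.26 for Klf7, 0.87 for Foxo3 and 0.58 for Foxo1. Both changes that end at 24 h held for Foxo3 without each of the 12 libraries in turn, and the change from 0 h to 24 h held likewise for Klf7 and Foxo1. No sample was called an outlier, since groups of 2 are too small for such a test.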

How the results depend on the processing

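Of the 120 results of 10 genes in 12 comparisons, 58 passed the threshold with all libraries, and 40 of these passed without each library in turn. Other scalings, filters, DESeq2, the libraries of a single time and the replicate block gave 750 values, of which 733 kept their side of the threshold, 17 passed only under the alternative and none was lost or turned round. Leaving out a library gave 1440 values: 1353 kept their side, 49 were lost, 25 passed newly and 13 turned direction. Over all these alternatives together, 55 sign changes of under 1 standard error, past the threshold in neither fit, were counted as kept. In no case was the cause tested.

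Without the filter 3 members were called in KO against WT at 0 h (0 with it) and 3 in the 0 h to 8 h change of the KO effect (1 with it); DESeq2 called 1 at 0 h. Same-numbered libraries deviated together (correlation over 0.1) in all 6 pairs of groups within a genotype and in 5 of 9 pairs between genotypes. The labels do not say what a number shares, so whether the numbers pair the libraries is not settled. With the replicate block 1 member was called at 0 h (Foxo1, -0.37, adjusted p = 0.0304), and Klf3 from 8 h to 24 h (0.34, adjusted p = 0.0305) and Klf10 from 0 h to 8 h (-0.51, adjusted p = 0.0439) passed in KO cells; it changed no other member's call.

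Leaving out 1 library gave 0 to 2 members called in KO against WT at 0 h, 0 to 1 at 8 h and 3 to 5 at 24 h. Within KO cells it gave 6 to 9 (8 h against 0 h), 5 to 8 (24 h against 8 h) and 6 to 8 (24 h against 0 h), and within WT cells 8 to 9, 2 to 4 and 7 to 10. For changes in the KO effect it gave 0 to 2 (0 h to 8 h), 1 to 4 (8 h to 24 h) and 3 to 6 (0 h to 24 h).

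Values that turned direction did so over these ranges, given as the log2 change without one or the other library of a group, with the lowest value first. Over the WT 0 h replicates, KO against WT at 0 h ran from -1.03 to 1.53 for Klf4 and -0.73 to 1.19 for Klf6. The shift in the KO effect between 0 h and 8 h ran from -1.45 to 1.12 for Klf4 and -0.96 to 0.96 for Klf6, and that between 0 h and 24 h from -1.005 to 1.56 for Klf4. Over the KO 8 h replicates, KO against WT at 8 h ran from -0.30 to 0.38 for Klf2, -0.18 to 0.31 for Klf3, -0.28 to 0.37 for Klf10 and -0.16 to 0.21 for Klf13. Its shift between 8 h and 24 h ran from -0.22 to 0.17 for Klf13, and Klf10 in KO cells at 24 h against 8 h from -0.035 to 0.62. Klf7 in KO cells at 24 h against 0 h ran from -0.044 to 0.52 over the KO 0 h replicates, and Foxo1 in WT cells at 24 h against 8 h from -0.11 to 0.11 over the WT 8 h replicates.

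Over all genes, calls at 0 h numbered 893, against 464 with the libraries of that time alone and 348 to 522 without a WT library of 0 h. At 8 h they numbered 415, against 862 without the filter, 669 with the replicate block, 667 with DESeq2 and 103 to 175 without WT 8 h replicate 1 or 2 or KO 8 h replicate 2. The shift in the KO effect between 0 h and 8 h had 156, against 445 without the filter, 300 with DESeq2 and 48 to 317 without a library, and that between 8 h and 24 h had 2265, against 1427 to 1446 without WT 24 h replicate 1, WT 8 h replicate 2 or KO 24 h replicate 1. At 28 to 61 counts in each stimulated library, Klf4 had the least depth of the members.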
